A study of Mus musculus with 49 samples.

Results

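Zfas1, Gas5, Snhg1, Snhg3, Snhg6, Snhg8, Snhg12, 1110038B12Rik and Epb41l4aos are mouse noncoding RNA genes whose introns or exons hold small nucleolar RNAs (snoRNAs). These 9 of the 45252 genes in the count table were taken by symbol, and all 9 were among the 18220 genes that passed the filter on low counts. The set was chosen by measured values of the same mice, because Zfas1 and 1110038B12Rik were high in bigenic mice. The genotype difference of the 9 genes is therefore described without a test, while tests are given for comparisons that the choice did not use. Genotype tests are also given for other genes, whose lists were drawn up with earlier results of these data known.

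Neocortical RNA of 49 mice, of a mixed strain from C57BL/6J x C3H/HeJ, was sequenced, with 1 library per mouse. The rNLS8 mice are bigenic, with a tTA driver under the neurofilament heavy promoter (NEFH-tTA) and a tetO-hTDP-43ΔNLS transgene, which encodes human TDP-43 lacking the nuclear localization signal and is silent under doxycycline. Since the driver is a neuronal promoter, only part of the cells in the tissue carry the induced protein. The 17 ctrl PBS mice were monogenic littermates with the tetO transgene but no driver, injected with PBS. Of the 32 rNLS8 mice, 10 received PBS (TDP-PBS), 10 received ovalbumin conjugates of peptides 10 and 12 (TDP10 + 12) and 12 received the conjugate of peptide 15 (TDP15), each at 40 µg with CpG and Alhydrogel. Injections began at 8 weeks of age, doxycycline was withdrawn in all groups at 25.5 weeks, and tissue was taken at 28.5 weeks. Total counts were between 17775738 and 21033608 per mouse. Endogenous Tardbp, the mouse gene for TDP-43, was lower in rNLS8 mice by a log2 fold change of -0.27 ± 0.04 (SE, edgeR quasi-likelihood test, adjusted p = 1.18e-08).

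snoRNAs guide chemical modification of ribosomal and other RNAs, and in mammals most are cut out of the introns of host genes during splicing. Many noncoding hosts begin with a 5′ terminal oligopyrimidine (TOP) tract, a C followed by a run of C and T that is also found at the start of ribosomal protein mRNAs and ties their translation to growth signalling. The spliced host RNAs are often read by ribosomes over short reading frames and removed by nonsense-mediated decay, so their steady level depends both on transcription and on decay.

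The sequence around the annotated start is shown for the genes on which the results turn, because a TOP tract is defined by its position there. Each line gives 40 bases before and 20 bases from the annotated start, 5′ to 3′, from RefSeq on GRCm38.p6, and capitals mark a C followed by at least 4 C or T that begins within 10 bases of the start.
Snhg8 (chr3:123508317-123508376, minus strand): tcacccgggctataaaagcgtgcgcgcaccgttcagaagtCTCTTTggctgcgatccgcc
1110038B12Rik (chr17:34952449-34952508, minus strand): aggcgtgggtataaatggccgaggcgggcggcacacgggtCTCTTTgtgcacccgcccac
Gas5 (chr1:161035126-161035185, plus strand): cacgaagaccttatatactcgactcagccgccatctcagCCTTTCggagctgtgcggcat
Snhg12 (chr4:132308638-132308697, plus strand): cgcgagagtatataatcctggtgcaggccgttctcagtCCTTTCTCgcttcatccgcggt
Snhg1 (chr19:8723447-8723506, plus strand): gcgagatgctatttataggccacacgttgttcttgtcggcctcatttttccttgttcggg
Zfas1 (chr2:167062894-167062953, plus strand): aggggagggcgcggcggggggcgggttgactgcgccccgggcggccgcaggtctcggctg

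Of the 9 genes, 7 had a start in the RefSeq table, and Snhg6 and Epb41l4aos had none. A TOP tract lay exactly at an annotated start of 3 of the 7, Snhg8, 1110038B12Rik and Gas5, against 3.01% of all 27025 genes with a start. Within 10 bases of a start it was found in 5 of the 7, with Snhg12 and Snhg3 added, against 34.4% of all genes. Of 14 other noncoding snoRNA hosts with a start, 1 had the tract exactly at a start and 8 within 10 bases. The 9 genes were listed as snoRNA host and TOP noncoding RNAs, so these shares are a description and no test of the motif. Gas5 has a second annotated start without such a run. The letters did not meet the definition in the windows of Zfas1 and Snhg1. Of 4 other motifs searched on both strands, from 250 bases before to 50 bases after the start, CACGTG, GAAANNGAA and TGATGNAAT were in no window of the 7 genes, against 8.09%, 9.76% and 1.08% of all genes, and CCGGAAGT was in that of Snhg3 alone, against 4.31%.

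Zfas1 (chr2:167062934-167065862, plus strand), host of Snord12, overlaps the start of Znfx1 on the other strand by 82 bases. Its level in ctrl PBS ran from 5.24 to 8.42 CPM (read counts scaled to library size with TMM factors), with a median of 6.23 CPM. In TDP-PBS it ran from 16.9 to 26.4 CPM (median 21.8), in TDP10 + 12 from 16.2 to 22.9 CPM (median 17.7) and in TDP15 from 15.7 to 30.5 CPM (median 23.2). The lowest rNLS8 mouse thus lay above the highest ctrl PBS mouse. The log2 fold change against ctrl PBS was 1.77 ± 0.08 (SE) in TDP-PBS, 1.56 ± 0.08 in TDP10 + 12 and 1.87 ± 0.08 in TDP15, and the mean of the 3 groups was 1.73 ± 0.07, a 3.32-fold higher level.

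1110038B12Rik (chr17:34950235-34952471, minus strand), host of Snord52, showed the same separation. Its level was 5.82 to 10.2 CPM in ctrl PBS (median 7.11) and 17.3 to 26.6 CPM in TDP-PBS (median 20.7). The TDP10 + 12 mice ran from 16.6 to 21.95 CPM (median 18.6) and the TDP15 mice from 17.1 to 26.97 CPM (median 23.8). Over the 3 rNLS8 groups the log2 fold change was 1.48 ± 0.07 (SE).

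Snhg1 (chr19:8723487-8726326, plus strand) holds 8 annotated snoRNAs, among them Snord22. It ran from 1.68 to 3.75 CPM in ctrl PBS (median 2.39), from 5.34 to 8.63 CPM in TDP-PBS (median 7.04), from 5.44 to 8.68 CPM in TDP10 + 12 (median 7.35) and from 4.53 to 11.4 CPM in TDP15 (median 7.91), with a log2 fold change of 1.59 ± 0.09 (SE). Snhg12 (chr4:132308678-132311024, plus strand), host of 4 snoRNAs including Snora44 and Snord99, had a higher base level and a smaller difference. Its level was 7.37 to 10.6 CPM in ctrl PBS (median 9.02), 14.9 to 20.3 CPM in TDP-PBS (median 17.2), 13.0 to 17.9 CPM in TDP10 + 12 (median 15.8) and 12.3 to 23.9 CPM in TDP15 (median 18.3). The log2 fold change of Snhg12 was 0.89 ± 0.06 (SE). In both genes, as in Zfas1 and 1110038B12Rik, all 32 rNLS8 mice lay above all 17 ctrl PBS mice. This held for 1.16% of all genes tested. The set was chosen on this difference, so these 4 genes are not compared with that share.

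Epb41l4aos, antisense to Epb41l4a and the least abundant of the set, is on chromosome 18 from 33794892 to 33795989. Its level was 0.330 to 1.29 CPM in ctrl PBS (median 0.765) and 0.715 to 2.42 CPM over the rNLS8 mice (median 1.49). The groups overlapped, and 23 of 32 rNLS8 mice exceeded the highest ctrl PBS value. The log2 fold change was 0.93 ± 0.13 (SE).

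Gas5 (chr1:161034601-161038539, plus strand), host of 8 annotated snoRNAs including Snord47, had the widest spread. The ctrl PBS mice lay between 12.4 and 27.7 CPM (median 15.6). The highest value was that of mouse 343 alone, and the next ctrl PBS mouse was at 17.5 CPM. The TDP-PBS mice ran from 4.23 to 48.4 CPM (median 28.6), the TDP10 + 12 mice from 4.71 to 59.7 CPM (median 25.0) and the TDP15 mice from 5.03 to 37.1 CPM (median 28.3). The rNLS8 values fell apart into 9 mice between 4.23 and 5.62 CPM, all below the lowest ctrl PBS mouse, and 23 mice between 24.2 and 59.7 CPM, with no mouse between. The low values came from 79 to 113 counts per mouse and were found in 2 TDP-PBS, 3 TDP10 + 12 and 4 TDP15 mice, 4 females and 5 males. This split was seen in the data and is given as a description. The fitted log2 fold change of 0.60 ± 0.25 (SE) averages over both sets, and with limma-voom and sample quality weights it was 0.11.

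Snhg3, Snhg6 and Snhg8 overlapped between the genotypes, with 2, 0 and 2 of the 32 rNLS8 mice above the highest ctrl PBS value. Snhg3 (chr4:132351933-132353686, minus strand), host of Snora73a and Snora73b, lies on the same strand as Rcc1 and overlaps it over 1673 bases, so reads there could be counted for either gene. It ran from 1.505 to 4.04 CPM in ctrl PBS (median 2.58) and from 1.52 to 4.24 CPM in rNLS8 mice (median 2.37), with a log2 fold change of -0.10 ± 0.12 (SE), and in TDP-PBS alone of -0.30 ± 0.16. Snhg6 (chr1:9942025-9944118, minus strand), host of Snord87, was at 0.948 to 3.42 CPM in ctrl PBS (median 1.94) and 1.11 to 2.80 CPM in rNLS8 mice (median 1.93), a log2 fold change of -0.04 ± 0.12 (SE). Snhg8 (chr3:123507552-123508336, minus strand), host of Snora24, was at 1.45 to 4.20 CPM in ctrl PBS (median 2.94) and 1.75 to 4.97 CPM in rNLS8 mice (median 2.89), a log2 fold change of 0.02 ± 0.11 (SE). Snhg8 carries a TOP tract exactly at its start, shown above, as does 1110038B12Rik.

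**Figure D1:**
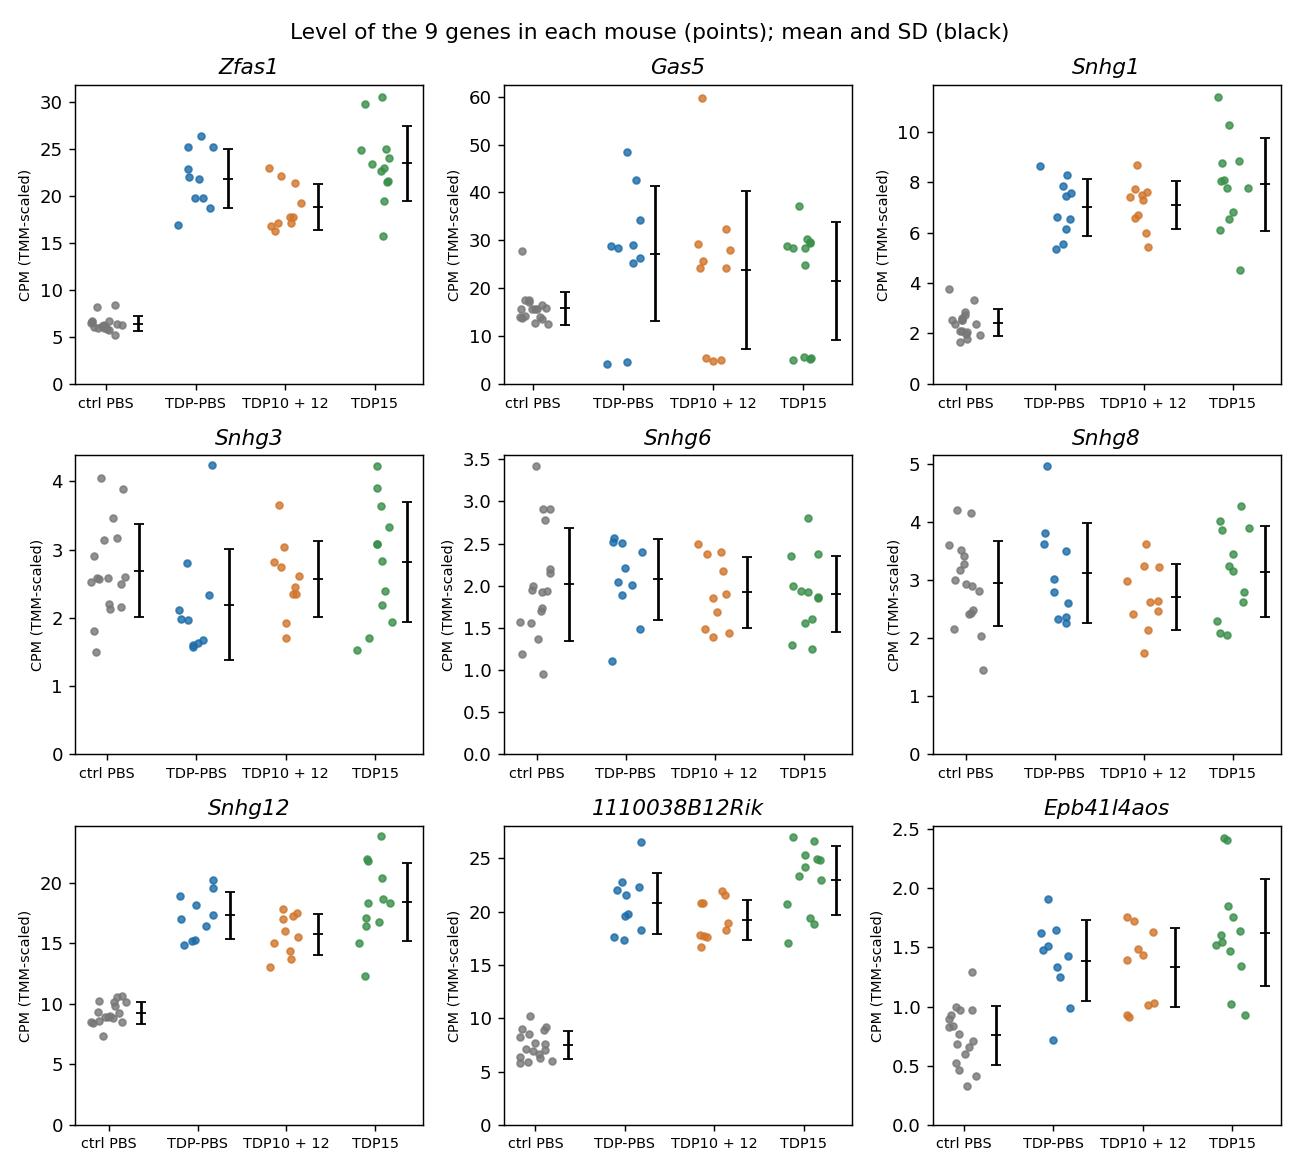
Level of each of the 9 genes in CPM (TMM-scaled, vertical axis from 0) in every mouse of the 4 groups, with the mean and SD in black. Zfas1, 1110038B12Rik, Snhg1 and Snhg12 separate all 32 rNLS8 mice from the 17 ctrl PBS mice, Gas5 has 9 rNLS8 mice between 4.23 and 5.62 CPM, and Snhg3, Snhg6 and Snhg8 overlap throughout.

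Over the 3 rNLS8 groups against ctrl PBS, 54.2% of all genes tested were past an adjusted p of 0.05 in either direction, 27.1% higher and 27% lower. In the single groups 43.5% of all genes were past it in TDP-PBS, 40.8% in TDP10 + 12 and 46.9% in TDP15. Because the 9 genes were chosen for this difference, they are not counted against these shares. The median log2 fold change of the 9 genes was 0.89, and that of all genes tested was 0.00. In bulk tissue, a change in the number of cells of a type and a change in RNA per cell cannot be told apart. Of 6 neuron markers 4 were lower in rNLS8 mice, and their summed level ran from 5919 to 7638 CPM in ctrl PBS and from 4432 to 5532 CPM in rNLS8 mice. Of 8 microglia markers 6 were higher and 1 lower, with summed levels of 187 to 217 CPM and 199 to 388 CPM. Of 5 astrocyte markers 1 was higher, Gfap, and 2 were lower, with sums of 588 to 803 CPM and 683 to 1642 CPM. Of 6 oligodendrocyte lineage markers 0 passed the test in either direction, with sums of 3245 to 5899 CPM and 2784 to 5603 CPM, and of 3 endothelial markers 1 was lower, with sums of 82.7 to 129 CPM and 68.9 to 123 CPM. The 3 T cell markers did not pass the filter and summed to at most 0.812 CPM. Every listed marker had counts in each group, and the part of these shifts in the levels of the 9 genes was not tested.

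The comparison of immunized with PBS-treated rNLS8 mice asked whether the conjugates moved the 9 genes. No sequenced group received ovalbumin alone, so the peptides and their carrier cannot be told apart here. In TDP10 + 12 against TDP-PBS, 0 of the 9 genes and 0% of all genes passed the test (edgeR quasi-likelihood), and 1 of the 9 and 953 of all genes had an unadjusted p under 0.05. Zfas1 was at -0.21 on the log2 scale (95% interval -0.39 to -0.04, adjusted p = 0.926). 1110038B12Rik was at -0.11 (-0.29 to 0.06), Snhg12 at -0.14 (-0.30 to 0.02) and Snhg1 at 0.02 (-0.22 to 0.26). DESeq2 also called 0 genes in this comparison, and limma-voom called 2, neither of them among the 9.

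In TDP15 against TDP-PBS, 0 of the 9 and 0% of all genes passed, 1 of the 9 and 552 of all genes had an unadjusted p under 0.05, and DESeq2 and limma-voom called 0. Snhg3 had the widest difference, 0.36 (95% interval 0.03 to 0.70, adjusted p = 0.9996). Zfas1 was at 0.10 (-0.06 to 0.27) and 1110038B12Rik at 0.14 (-0.03 to 0.31). In 7 of the 9 genes the difference was positive.

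In TDP10 + 12 against TDP15, 0 of the 9 and 0% of all genes passed, while 3 of the 9 and 1244 of all genes had an unadjusted p under 0.05. Those 3 were Zfas1 at -0.32 (95% interval -0.48 to -0.15, adjusted p = 0.328), 1110038B12Rik at -0.25 (-0.42 to -0.09, adjusted p = 0.536) and Snhg12 at -0.23 (-0.38 to -0.07, adjusted p = 0.537). In 7 of the 9 genes the estimate was lower in TDP10 + 12. DESeq2 called 2 of all genes and limma-voom 0, none of them among the 9. The intervals for Gas5 were the widest in all 3 comparisons and reached from -1.02 to 0.35 for TDP15 against TDP-PBS.

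**Figure D2:**
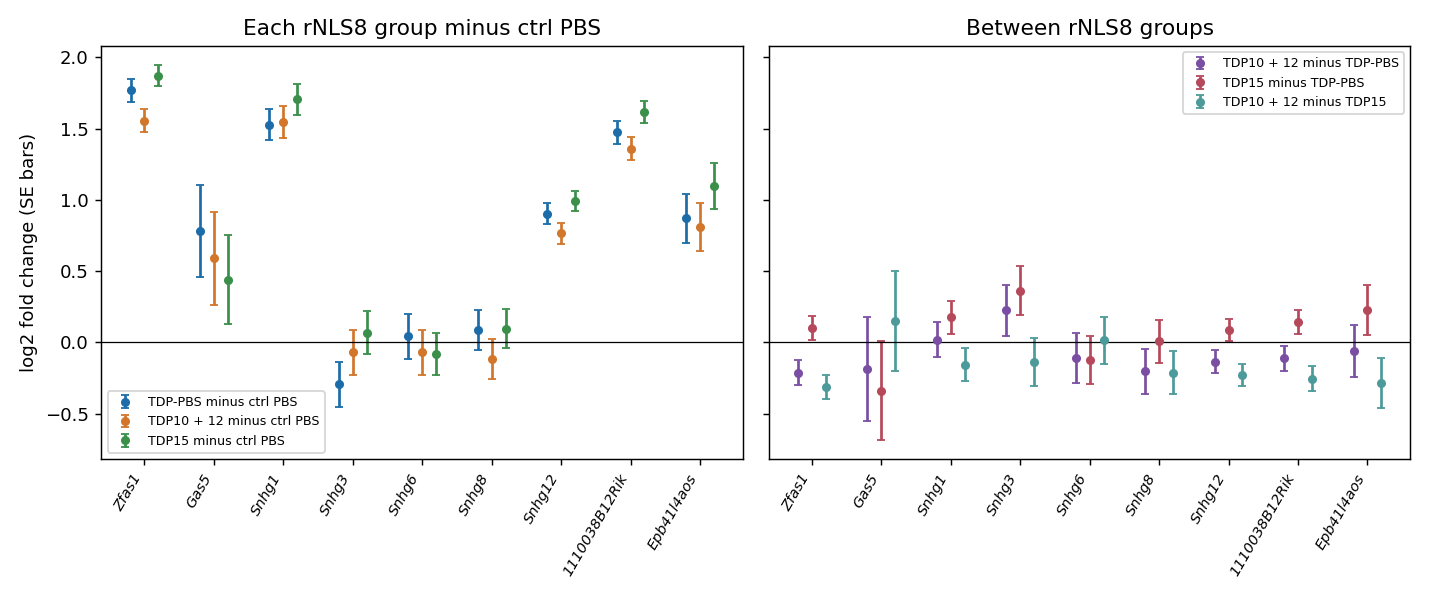
Log2 fold change (vertical axis, bars are SE) of the 9 genes for each rNLS8 group minus ctrl PBS (left) and between rNLS8 groups (right). On the left Zfas1 lies at 1.56 to 1.87 and Snhg3, Snhg6 and Snhg8 between -0.30 (Snhg3 in TDP-PBS) and 0.10, and on the right the largest estimate in size is 0.36 for Snhg3.

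No difference between females and males (25 and 24 mice) passed the test in the 9 genes. The male minus female log2 difference ran from -0.07 for Snhg8 to 0.18 for Epb41l4aos, and 0 of the 9 passed the test, where 0.0933% of all genes did (edgeR quasi-likelihood, 17 genes, and 724 at an unadjusted p under 0.05). The genotype by sex interaction was past the threshold in 0 of the 9 and 0% of all genes, with 661 genes at an unadjusted p under 0.05, and DESeq2 and limma-voom also called 0. Among the 9, Snhg8 had the largest interaction, 0.61 ± 0.21 (SE, unadjusted p = 0.00480, adjusted p = 0.999).

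Mouse-to-mouse variation within groups was compared between the 9 genes. Deviations of log2 CPM from the group mean were correlated over the 49 mice for all 36 pairs of the 9 genes, with p from 100000 permutations within groups. Pearson's r passed the adjustment over the 36 pairs in 7 of them and Spearman's rho in 2. The 7 were the 6 pairs among Zfas1, Snhg1, Snhg12 and 1110038B12Rik, and Snhg3 with 1110038B12Rik. The 6 pairs were uneven between groups, with r of 0.59 to 0.91 in TDP15, 0.21 to 0.64 in TDP-PBS, 0.06 to 0.36 in ctrl PBS and -0.33 to 0.55 in TDP10 + 12. Over the 37 mice outside TDP15 they ran from 0.14 to 0.39, and 3 of the 6 had an unadjusted permutation p under 0.05. The strongest was Zfas1 with Snhg12 (r = 0.62, adjusted p = 0.00144, rho = 0.58, adjusted p = 0.00252), with r = 0.62 again without the 2 mice farthest from the median of Zfas1. Snhg1 with Snhg12 followed (r = 0.56, adjusted p = 0.00324, rho = 0.50, adjusted p = 0.00756, and r = 0.57 without 2 mice). Zfas1 with Snhg1 gave r = 0.51 (adjusted p = 0.00624), with rho = 0.40 past no adjusted threshold (adjusted p = 0.0619). Both members of such a pair come from 1 library, so that depth and RNA quality are shared, and their part was not tested. Pairs with Gas5 are not given, since its values fall into 2 sets.

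Zfas1 and 1110038B12Rik, the pair that defined the set, had r = 0.38 over the 49 mice (permutation p = 0.00726, adjusted p = 0.0373) and rho = 0.37 (permutation p = 0.00842, adjusted p = 0.0619), and r = 0.35 without the 2 mice farthest from the median of Zfas1. The relation was uneven between groups. It was r = 0.83 in TDP15 and 0.63 in TDP-PBS, but 0.13 in ctrl PBS and -0.33 in TDP10 + 12, and over the 37 mice outside TDP15 it was 0.18 (permutation p = 0.28). It thus rested largely on the TDP15 mice. No gene of the set passed the adjustment with its neighbour over the 8 pairs tested. Zfas1 with Znfx1 had r = 0.13 (permutation p = 0.41, adjusted p = 0.821, rho = 0.05 with permutation p = 0.77 and adjusted p = 0.859) and r = 0.17 without 2 mice.

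**Figure D3:**
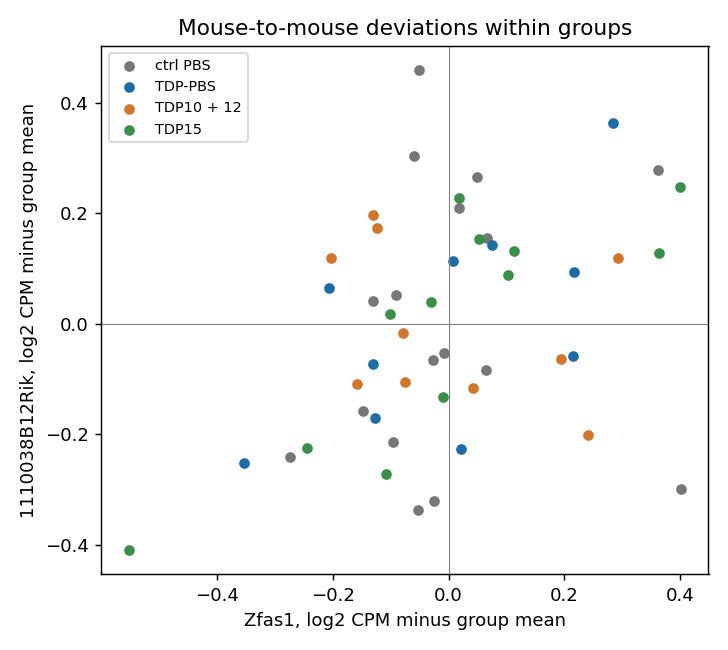
Deviation of Zfas1 (horizontal) and 1110038B12Rik (vertical) from the group mean in log2 CPM, 1 point per mouse, coloured by group. The TDP15 points follow a rising line (r = 0.83), while the TDP10 + 12 points do not (r = -0.33).

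The genes most like Zfas1 in these deviations were Rpl35a-ps6 (r = 0.68), Rpl4 (0.63), Gm12918 (0.63), Rpl13-ps6 (0.61) and Rpl35a-ps4 (0.60), over 49 mice and 18211 other genes. For 1110038B12Rik they were Rpl10 (0.67), Gm3379 (0.61), Rpl10-ps6 (0.60), Rpl39 (0.59) and Gm7476 (0.58). Gm12918, Gm3379 and Gm7476 are annotated as pseudogenes, and counts of pseudogenes are uncertain where they share sequence with other genes. Over the 79 ribosomal protein genes tested, the median r was 0.42 for Zfas1, 0.34 for 1110038B12Rik, 0.34 for Snhg12 and 0.29 for Snhg1, and 0.33 for Snhg8, 0.18 for Snhg3, 0.14 for Snhg6 and 0.07 for Epb41l4aos. The median r over all other genes was near 0 for each, with 0.01 for Zfas1. Snhg8, whose level did not differ by genotype beyond its error, thus had a median near that of 1110038B12Rik. These correlations are a description.

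Other noncoding snoRNA hosts, which the choice did not use, moved unevenly between rNLS8 and ctrl PBS. Of the 15 listed, 14 were tested, 8 rose and 2 fell (edgeR quasi-likelihood), beside 27.1% higher and 27% lower among all genes. The median log2 fold change of the list was 0.26. RefSeq places 0 snoRNA genes inside 2 of the listed genes, Snhg10 and Snhg20. 2410006H16Rik ran from 2.05 to 5.16 CPM in ctrl PBS and 6.37 to 16.8 CPM in rNLS8 mice, with no overlap (1.64 ± 0.09, SE, adjusted p = 3.37e-21). Snhg15 was at 0 to 0.854 CPM in ctrl PBS and 0.731 to 2.03 CPM in rNLS8 mice (1.56 ± 0.18, adjusted p = 1.56e-10). The levels of Snhg20 and Snhg11 fell, by log2 fold changes of -0.27 ± 0.06 (adjusted p = 3.06e-04) and -0.26 ± 0.04 (adjusted p = 2.85e-07). In 3 of the 14 all rNLS8 mice lay above all ctrl PBS mice, which held for 1.16% of all genes tested.

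Of 38 protein-coding snoRNA hosts, 29 rose and 4 fell, with a median of 0.31. They included Rpsa at 0.86 and Rps2 at 0.79, ribosomal proteins, and Hspa8 at -0.16, a chaperone, and Cct6a at -0.16, a chaperonin subunit. Of 79 ribosomal protein genes tested, which overlap the former list, 71 rose and 0 fell (median 0.43), and Rps7 at -0.05 and Rps24 at 0.03 were the lowest. Of 23 other translation genes with TOP mRNAs, 15 rose and 2 fell (median 0.22), among them Fau at 0.54, a ribosomal protein made as a fusion with a ubiquitin-like part, Eef1d at -0.12, an elongation factor subunit, and Nap1l1 at -0.40, a histone chaperone. All of these stand beside 27.1% higher and 27% lower among all genes, with a median of 0.00.

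The machinery that binds snoRNAs and the decay machinery showed smaller differences. Of 17 genes for core snoRNA proteins and their assembly, 6 rose and 3 fell (median 0.00), from Nufip1 at 0.25 and Gar1 at 0.24 to Shq1 at -0.19, which did not pass, and Pih1d1 at -0.33. Of 15 nonsense-mediated decay and exon junction genes, 7 rose and 0 fell (median 0.09), from Upf3b at 0.28 and Smg6 at 0.23 to Smg5 at -0.06 and Smg1 at -0.09, neither of which passed. Counted in either direction, the numbers past the test in both lists are near the 54.2% of all genes. By direction, all genes stood at 27.1% higher and 27% lower, whereas the decay and exon junction list had 7 higher and 0 lower.

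**Figure D4:**
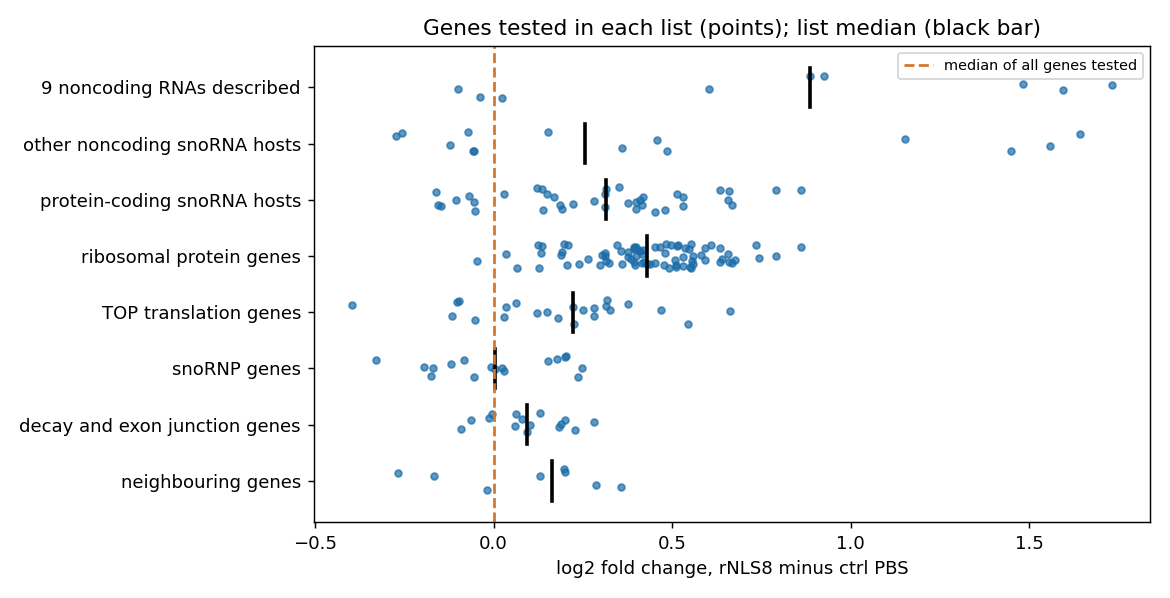
Log2 fold change of rNLS8 minus ctrl PBS (horizontal axis) for the tested genes of each list, 1 point per gene, with the list median as a black bar and the median of all genes dashed. The medians are 0.43 for ribosomal protein genes, 0.31 for protein-coding hosts, 0.26 for other noncoding hosts and 0.00 for snoRNP genes, and the 9 genes at the top were chosen on this contrast.

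Genes next to Zfas1, Snhg1, Snhg12, 1110038B12Rik and Epb41l4aos had smaller log2 fold changes than those genes. Rcc1 and Prss12 had estimates larger in size than those of Snhg3 and Snhg8 beside them. Of 9 neighbours 8 were tested, 4 rose and 1 fell (median 0.16), where 54.2% of all genes were past the test. Slc3a2, an amino acid transporter chain beside Snhg1, was at 0.36 ± 0.04 (SE, adjusted p = 6.31e-12), with all 32 rNLS8 mice above every ctrl PBS mouse. Rcc1 was at 0.29 ± 0.06, where Snhg3 beside it was at -0.10, and Neu1 beside 1110038B12Rik was at 0.20 ± 0.04. Znfx1, which overlaps Zfas1 on the other strand, was at 0.13 ± 0.04 (adjusted p = 0.0117), and Zbtb37 beside Gas5 fell by 0.27 on the log2 scale. Epb41l4a at 0.20 ± 0.11, Trnau1ap at -0.02 ± 0.06 and Prss12 at -0.17 ± 0.08 did not pass, and Tcf24 was below the filter. The strand setting of the counting is not given in the sources used here, so overlapping reads of Zfas1 and Znfx1, and of Gas5 and Zbtb37, cannot be told apart.

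Few reads were counted in the snoRNA rows of these hosts. The libraries were made for mRNA, and whether reads in any snoRNA row came from the snoRNA or from its host RNA was not tested. Inside the 9 hosts the table holds 30 snoRNA rows, of which 4 passed the filter and 1 had no count in any mouse. Reads in the rows inside the 9 hosts could come from the host RNAs, and the set was chosen on their genotype difference. The difference of these rows is therefore also given without a test. Snord52, inside 1110038B12Rik, ran from 0 to 1.09 CPM in ctrl PBS and 0.0967 to 1.87 CPM in rNLS8 mice. Its log2 fold change was 0.75 ± 0.30 (SE). Both ranges overlap widely, and at most 38 counts stood behind a value. The 3 rows inside Gas5 that passed the filter had log2 fold changes of -0.17, 0.42 and 0.30. Among 8 snoRNA rows tested over the whole table, named by Snord, Snora or Scarna symbols, Snord42b rose by 1.07 ± 0.16 and Snord55 by 1.04 ± 0.17 (adjusted p = 1.33e-07 and 1.005e-06), and Snora28 at -0.30 and Snora65 at -0.13 did not pass.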

How the data were processed

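The authors isolated RNA from neocortex, sequenced mRNA libraries as paired-end reads aligned to GRCm38.p6, and deposited unnormalized counts of each gene in every mouse. The submitters' processing notes name HISAT2, Bowtie2 and RSEM, with no role. The annotation and strand setting are not given in the sources used here. Groups, sex and animal numbers came from the labels. The 9 genes and the gene lists were chosen with earlier results of these data known.

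Processing began with filterByExpr (minimum count 10, total 15) and TMM scaling, and 1 fit by group over the 49 mice used edgeR 4.0.16 (glmQLFit, glmQLFTest, R 4.3.3). Sex was added as a term for the sex and interaction tests. P-values are two-sided and Benjamini-Hochberg adjusted over all genes, SE were derived from the F statistic and intervals are ± 1.96 SE. Alternatives used DESeq2 1.42.0, limma 3.58.1, other scaling and filters, sex as a covariate and fewer groups. Correlations used log2 CPM with a prior count of 2. The fit was tested on simulated counts. Named genes were the 9, their neighbours, Tardbp, the 2 largest and 2 smallest log2 fold changes of each list, and the 5 genes most correlated with Zfas1 and with 1110038B12Rik. Some genes under this rule are not reported here. Genes named beside the Gas5 split were chosen after their values were seen. No libraries within a group were copies (lowest chi-squared over degrees of freedom, 7.24). P-values measure the spread between mice of 1 experiment.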

Additional observations from a re-analysis of the deposited data

Results flagged for a closer look

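Over 18 groups of 10 mice (9 genes in TDP-PBS and in TDP10 + 12), 2 had a mouse whose gap to the nearest other mouse exceeded Dixon's 95% critical value, which chance gives in about 1 in 20 groups. Gas5 in TDP10 + 12 mouse 51 was at 59.7 CPM, with the next mouse at 32.3 CPM. Snhg3 in TDP-PBS mouse 26 was at 4.24 CPM, with the next mouse at 2.80 CPM.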

How the results depend on the processing

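The number of the 9 genes past the threshold stayed at 0 between rNLS8 groups, by sex and in the interaction under every alternative run, and 10 or 9 of the other noncoding hosts passed against ctrl PBS. The log2 fold change of Gas5 against ctrl PBS was 0.60 without a filter on low counts and 0.11 with limma-voom. The correlation of Zfas1 with 1110038B12Rik fell to 0.13 (permutation p = 0.611) in the 17 ctrl PBS mice alone and to 0.18 (permutation p = 0.28) outside TDP15, the last chosen after seeing the data, while 5 other alternatives gave 0.35 to 0.54. Counts over all genes moved for sex, from 17 to 53 without a filter, 11 when each mouse needed 10 counts and 5 in ctrl PBS mice alone. Between TDP10 + 12 and TDP15 they moved from 0 to 1 without a filter, to 2 with DESeq2 and to 2 with only those groups fitted, and between TDP10 + 12 and TDP-PBS from 0 to 1 without a filter and to 2 with limma-voom. No paired analysis was possible because every mouse is a separate animal and no number is shared between groups. Litters are not labelled, so mice of 1 litter could not be grouped. Epb41l4aos was not tested under that filter of 10 counts. Levels under 1 CPM rest on few counts.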

Other observations

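The gap between the 9 low and 23 high rNLS8 mice in Gas5 was 2.09 on the log2 scale, leaving out the 4 mice at each end, and 51 of 18220 genes had a wider one. For the other 8 genes it was 0.05 to 0.26, and the median of all genes was 0.07. When genes were ranked by how closely they followed Gas5 over the 32 rNLS8 mice, the first 5, Ints7, Ifi213, Myoc, Ifi206 and Fcer1g, were all on chromosome 1, as Gas5 is, and 9 of the first 20 were, against 6.05% of genes tested. Within the sets the relation of Gas5 to Ints7 was r = 0.04 in the 9 low mice, 0.19 in the 23 others and -0.23 in the 17 ctrl PBS mice. These genes were chosen after their values were seen, and no test was made.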
